A study of Drosophila melanogaster with 107 samples.

Results

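Hr46, Hr4, Hr39, ftz-f1, Eip93F and Kr-h1 act downstream of the ecdysone receptor in the fly's metamorphic hormone cascade, and they were followed here by symbol through every stage, cell type and genotype of the deposited tables. These 6 genes are among 17050 listed, and all 6 passed the filter on low values in both tables, beside 8320 genes tested in the developmental table and 8656 in the perturbation table. Their levels formed several patterns in mushroom body γ neurons. Hr4, Hr46 and Kr-h1 were low by 9 h after puparium formation. Eip93F was high from 9 h onward, and Hr46 and Hr4 were high again at 30 h. ftz-f1 had 1 to 71 normalized reads in each pupal library of the developmental table, was high in adult cells, and was higher than in control at all 4 stages in EcR-DN neurons and at L3, 0 h and 12 h in neurons labelled E75 RNAi.

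Ecdysone acts through the receptor EcR and its partner usp, which switch on early genes such as Eip75B, and the early genes in turn control later nuclear receptors. Hr46 (Hr3 in the current annotation) is a ROR-type receptor that activates ftz-f1 in prepupae, and the Eip75B protein binds it and blocks that activation. Hr4 is a nuclear receptor that represses early genes, and ftz-f1 encodes the nuclear receptor that makes prepupal tissues competent for the next ecdysone pulse. In γ neurons, which prune their larval axon branches early in metamorphosis and later regrow adult ones, ftz-f1 is known to promote EcR expression, and the related receptor gene Hr39 to oppose ftz-f1. Eip93F encodes a DNA-binding factor that specifies adult development, and Kr-h1 is a zinc-finger gene induced by juvenile hormone whose product represses Eip93F in larval insects.

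Brain cells carrying the red nuclear marker RedStinger were sorted, 1000 cells per library, and sequenced by MARS-seq, a method that counts tags near transcript ends after linear amplification. Neurons labelled EcR-DN, E75 RNAi or Sox14 RNAi were profiled at the third larval instar (L3), 0, 6 and 12 h with 2 or 3 libraries per group, against control γ neurons of the same stages; DN stands for a dominant-negative form of EcR, E75 for the Eip75B product, and Sox14 is a transcription factor needed for pruning. The developmental table held γ neurons at 14 stages, in order the second larval instar (L2), L3, every 3 h from 0 h to 30 h after puparium formation, and adult, and adult astrocyte-like cells, αβ neurons and non-mushroom-body (non-MB) neurons, with 3 or 4 libraries per group. Flies were reared at 25 °C with both sexes taken at random, and adults were 3 to 5 days old.

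Developmental and control γ neurons carried 71G10 with UAS-RedStinger in a y,w background. The perturbed lines are given in the labels only as EcR-DN, E75 RNAi and Sox14 RNAi, without driver or transgene. Astrocyte-like cells came from flies with alrm-Gal4, UAS-CD8:GFP and UAS-Dcr2 over balancers, so they differed from the neuron groups in added transgenes as well as in cell type. NP3061-GAL4 marked αβ neurons, and C155-GAL4, a neuronal driver, with MB247-GAL80, which blocks GAL4 in mushroom body cells, marked non-MB neurons. The adult neuron groups thus also differed from each other in driver, and non-MB neurons in MB247-GAL80, as well as in cell type. The part of these transgenes in the adult differences was not tested. In sorted bulk cells, fewer cells of a type and less RNA per cell cannot be told apart. The labels do not say whether replicate libraries came from separate flies, so p-values measure the spread between libraries, which may be technical.

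The 107 libraries held 1343651 to 2068007 normalized reads each in the developmental table and 1896123 to 2501051 in the perturbation table. In astrocyte-like cells the glial genes repo and alrm had 1859 to 2409 and 3455 to 5185 normalized reads, against at most 29 and 72 in adult neurons. In the developmental table, mushroom body markers, 8 genes summed, had 5805 to 17562 reads in γ neurons and 11668 to 14861 in αβ neurons. Non-MB neurons had 2713 to 3620. Mef2, 1 of the 8, was lower in γ neurons at 0 h (116 to 172), 3 h (58 to 78) and 6 h (230 to 489) than in the other γ stages (at least 1100). At 0 h and 3 h Mef2 was also lower than in non-MB neurons (486 to 661). In the perturbation table at 6 h, the 8 genes summed to 11714 and 13087 in control and 17047 to 17727 in EcR-DN neurons. The sums were 9119 to 10284 in E75 RNAi and 7114 to 7826 in Sox14 RNAi neurons. The part of these markers in the 6 h differences was not tested. Sox14 was lower in Sox14 RNAi neurons than in control at L3 (1037 to 1154, against 6368 and 7474) and at 0 h (939 to 1118, against 7100 to 7888), and overlapped control at 6 h and 12 h. Eip75B in libraries labelled E75 RNAi was below both control libraries at L3 (14881 to 22294, against 25956 and 33983) in a difference that did not pass (-0.68 ± 0.25, adjusted p = 0.152), overlapped control at 0 h and 12 h, and was higher at 6 h (14794 to 19423, against 6318 and 8483). The labels do not state which stretch of Eip75B was silenced or where these tags lie. Silencing was thus not shown by these reads, and every E75 RNAi result is for libraries so labelled. EcR was lower in EcR-DN neurons at L3 (1186 to 1249, against 4007 and 5478) and higher at 6 h (2148 to 2674, against 308 and 347). At 0 h it overlapped control, and at 12 h the EcR-DN libraries (1060 and 1249) lay above control (697 to 955). Transcripts of the EcR-DN form may add to these reads, so they do not give the level of the neurons' own EcR. Over all genes, the library labelled Sox14 RNAi L3 replicate A correlated more with Sox14 RNAi 0 h replicates B and C (r = 0.909) than with its own group (0.899). In turn, 0 h replicate A correlated more with L3 replicates B and C (0.913) than with its own (0.887). Calls of the 6 genes against control at L3 and 0 h for Sox14 RNAi are given with and without both libraries. Other Sox14 RNAi values that use these stages include both libraries unless stated.

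Each of the 6 genes varied across the 14 γ neuron stages (limma F test on log2(normalized reads + 1), Benjamini-Hochberg adjusted p from 2.66e-26 for Kr-h1 to 5.27e-13 for ftz-f1), in a table where 43.5% of genes did. Because levels come from tags near transcript ends and carry no length scaling, they are compared between groups for 1 gene and not between genes. Differences are limma estimates on the log2 scale, later stage minus earlier, called where the adjusted p over all genes of the comparison was under 0.05. The +1 pseudocount makes differences from very low levels smaller than the ratio of reads.

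**Figure D1:**
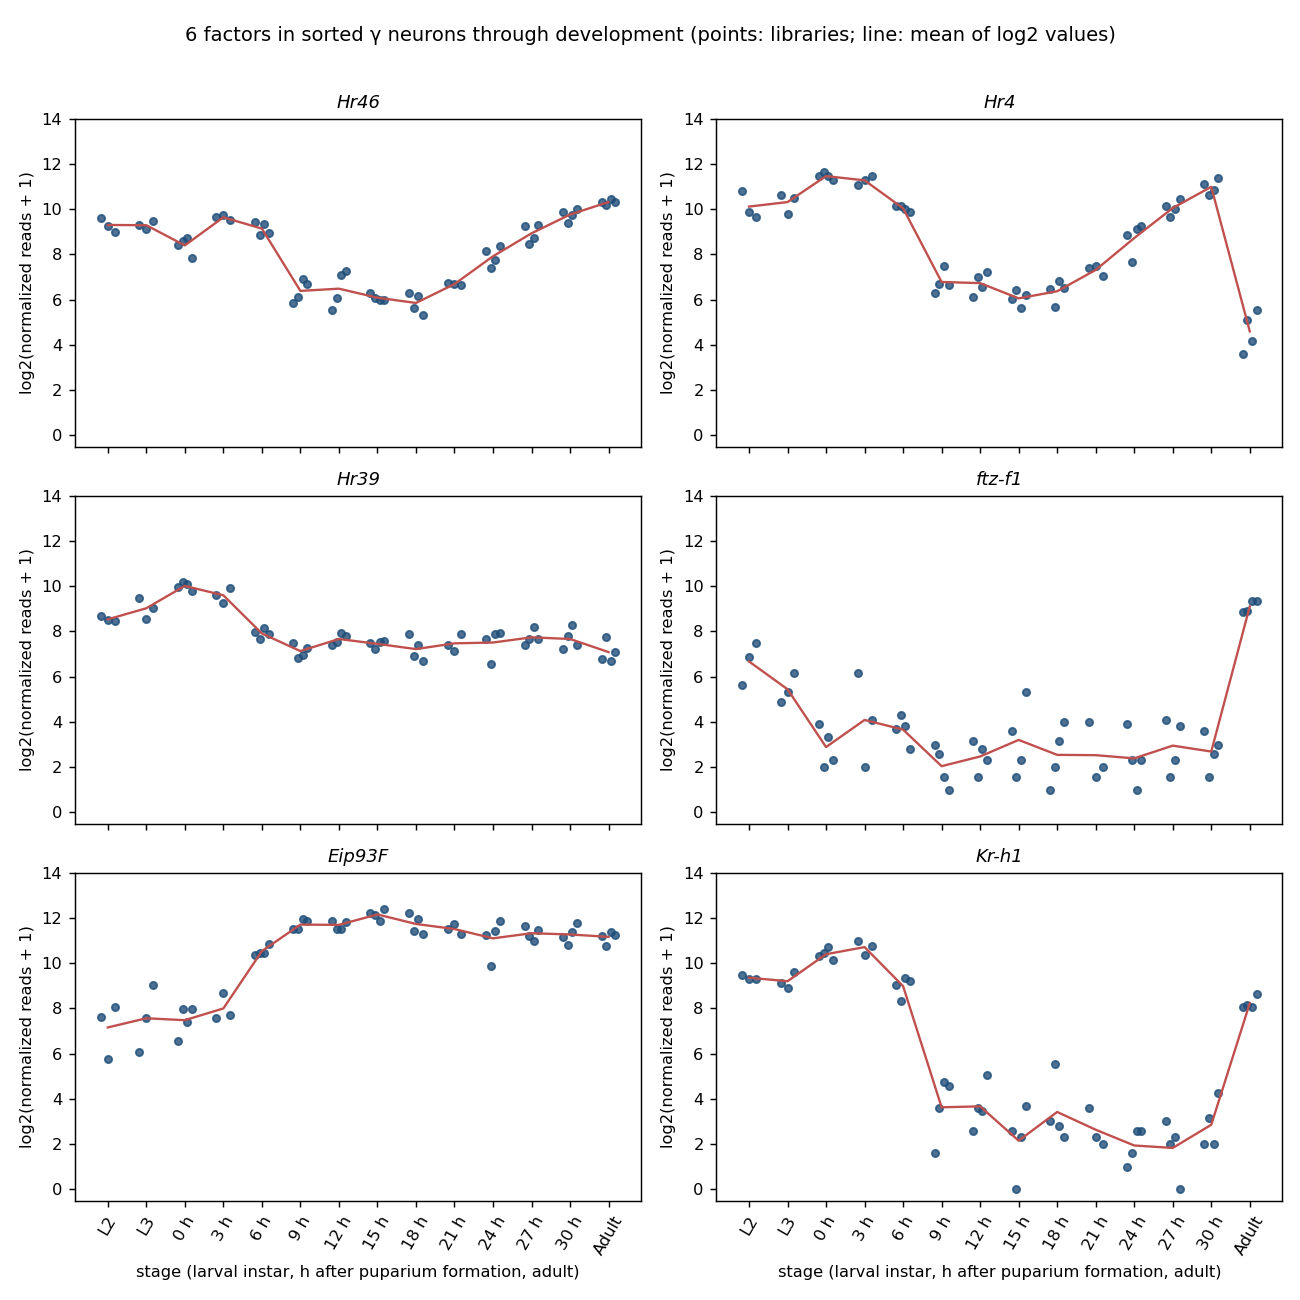
Level of each gene by γ neuron stage (x axis, in developmental order) as log2(normalized reads + 1) (y axis); points are libraries, the line joins the means of the log2 values. Kr-h1 lies at 0 to 46 reads from 9 h to 30 h, and Hr4 returns to 1581 to 2671 reads at 30 h and has 11 to 46 in the adult.

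Hr46, the ROR-type receptor that primes ftz-f1, showed 2 rises in γ neurons with a trough between them. L2 and L3 libraries had 512 to 791 normalized reads, 0 h libraries 338, 390, 425 and 229, and 3 h libraries 811, 857 and 733. All 3 h libraries were above all 0 h libraries, but the difference did not pass (log2 1.24 ± 0.44 SE, adjusted p = 0.0919). It passed with equal library totals, with quantile normalization, with only the compared stages in the fit, and without the astrocyte-like libraries. At 9 h Hr46 had 57, 69, 118 and 101 reads, and at 6 h 687, 463, 650 and 489. The 2 sets of libraries did not overlap, and Hr46 fell at 9 h relative to 6 h by 2.75 ± 0.41 (adjusted p = 1.82e-06), in a comparison where 4.01% of genes passed and 3 of the 6 did. Cuticle and trachea markers, 7 genes summed, had 679 to 1184 reads at 6 h and at most 120 at each other γ stage, and dissociation stress genes, 7 summed, had 3559 to 4880 at 9 h and 8129 to 9869 at 6 h; their part in the differences from 6 h was not tested.

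The Hr46 trough lasted to 21 h, with 39 to 151 reads in the 19 libraries of 9 h to 21 h. Libraries at 24 h had 280, 170, 212 and 335 reads, at 27 h 354 to 621, and at 30 h 949, 680, 866 and 1020. Each 24 h library was above each 18 h library (39 to 77), and the difference of 2.06 ± 0.41 passed (adjusted p = 0.0116) in a comparison that called 11 genes, 0.132%, Hr46 and Hr4 among them; that number ran from 3 to 12 with 1 library left out. The call for Hr46 was lost when any of 18 h replicates 2 and 4 or 24 h replicates 1 and 4 was left out (log2 1.89 to 1.99, adjusted p 0.0583 to 0.0765). At 30 h relative to 18 h the same 2 of the 6 genes passed, beside 1.29% of all genes. At 30 h relative to 0 h, Hr46 was higher by 1.37 ± 0.41 (adjusted p = 0.00968), while Hr4 had overlapping levels at those stages; 4 of the 6 genes and 23.2% of all genes passed. Adult γ neurons had 1262, 1168, 1387 and 1291 reads, above all 30 h libraries, with a difference of 0.55 ± 0.41 that did not pass (adjusted p = 0.417) except with only those stages in the fit.

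Hr4, the receptor that represses early genes, had 2793, 3182, 2824 and 2533 reads at 0 h, against 1589, 888 and 1463 at L3. No library overlapped between these stages, but the difference of 1.15 ± 0.58 did not pass (adjusted p = 0.268) unless the fit held only these stages or left out the astrocyte-like libraries. At 3 h it had 2163 to 2805 reads, at 6 h 936 to 1134 and at 9 h 77, 102, 180 and 100. Hr4 fell at 9 h relative to 6 h by 3.26 ± 0.54 (adjusted p = 1.40e-05) and stayed at 48 to 180 reads in every library from 9 h to 21 h.

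The second Hr4 rise was stepwise in the means, 160 ± 26.3 normalized reads at 21 h, 457 ± 179 at 24 h, 1082 ± 250.4 at 27 h and 2073 ± 472 at 30 h (SD; n = 3 at 21 h and n = 4 at each later stage). At 24 h relative to 18 h the difference was 2.35 ± 0.54 (adjusted p = 0.0385), a call lost in 6 of the 8 fits that left out 1 library (2.12 to 2.40, adjusted p 0.0947 to 0.186). Adult γ neurons had 11, 33, 17 and 46 reads, far below 2196, 1581, 1842 and 2671 at 30 h. Hr4 fell in the adult relative to 30 h by 6.39 ± 0.54 (adjusted p = 1.41e-14), in a step where 18.6% of genes passed and 3 of these 6 did. Levels at 30 h, 1581 to 2671, overlapped those at 0 h, 2533 to 3182, and the interval of the 30 h minus 0 h difference was -1.55 to 0.60.

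Hr39, related to ftz-f1 and known as its opponent in these neurons, peaked at the start of metamorphosis. It had 984, 1178, 1108 and 882 normalized reads at 0 h, against 710, 379 and 521 at L3. All 0 h libraries were above all L3 libraries (0.99 ± 0.28, adjusted p = 0.0148); 2 of the 6 genes, Hr39 and ftz-f1, passed in this step, as did 8.53% of genes. Without L3 replicate 3 the value for Hr39 was 0.76 (adjusted p = 0.177). At 6 h Hr39 had 253, 199, 280 and 233 reads, lower than the 787, 602 and 979 at 3 h by 1.69 ± 0.28 (adjusted p = 3.06e-05), in a step where 3.19% of genes passed. At 9 h it had 111 to 177 reads, below every 6 h library, but 9 h minus 6 h did not pass in the fit of all libraries. From 9 h to the adult it stayed between 93 and 306 reads. No step after 9 h passed for it except adult minus 30 h, when adult replicate 2 was left out or library totals were made equal.

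ftz-f1, the competence factor, had few reads in larval γ neurons, fewer in pupal stages and many in the adult. L2 libraries had 49, 117 and 179 normalized reads, L3 libraries 28, 39 and 70, and 0 h libraries 14, 3, 9 and 4. At 0 h relative to L3 it fell by 2.56 ± 0.75 (adjusted p = 0.0195), a call lost when L3 replicate 3 or 4 or 0 h replicate 2 or 4 was left out (-2.62 to -2.20, adjusted p 0.0575 to 0.128). From 0 h to 30 h ftz-f1 ran from 1 to 71 reads, with 71 in 1 library of 3 h and 39 in 1 library of 15 h the only values above 19. Adult γ neurons had 457, 481, 647 and 645 reads, against 11, 2, 5 and 7 at 30 h. The adult rise of 6.42 ± 0.70 (adjusted p = 7.97e-11) was large enough that adult levels lay above every larval library too, with adult minus L3 at 3.66 ± 0.75 (adjusted p = 1.46e-04; 4 of the 6 genes and 20% of all genes passed).

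Eip93F, the adult specifier, rose after 3 h and did not return to its larval level. L2, L3, 0 h and 3 h libraries had 54 to 520 normalized reads. The 6 h libraries had 1307, 1414, 1414 and 1829 and the 3 h libraries 190, 413 and 210. Eip93F was higher at 6 h than at 3 h by 2.53 ± 0.40 (adjusted p = 1.12e-05), and at 6 h than at 0 h by 3.05 ± 0.37 (adjusted p = 2.81e-09); in the latter comparison it was called with Hr39, 2 of 6 genes beside 11.6% of all genes.

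At 9 h Eip93F had 2957, 2875, 3908 and 3727 reads, each above the 6 h libraries, yet 9 h minus 6 h did not pass (1.17 ± 0.37, adjusted p = 0.0592). It passed with a pseudocount of 5, equal totals, quantile normalization, only the compared stages in the fit, or no astrocyte-like libraries (adjusted p 0.0038 to 0.0433). At 12 h relative to 6 h the difference of 1.16 ± 0.37 passed narrowly (adjusted p = 0.0406), together with the falls of Hr46, Hr4 and Kr-h1 (4 of 6 genes beside 7.49% of all genes), and was lost in 7 of 8 fits that left out 1 library (adjusted p 0.0583 to 0.108). The highest stage mean was 4592 ± 661 at 15 h (SD, n = 4). From 18 h to the adult the libraries ran from 924 to 4808 reads and neighbouring stages overlapped.

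Kr-h1, the juvenile hormone response gene, was high around puparium formation, low from 9 h to 30 h and higher again in the adult. It had 476 to 775 normalized reads at L2 and L3, 1264, 1394, 1663 and 1118 at 0 h, and 2029, 1328 and 1741 at 3 h. In the fit of all libraries, no step between consecutive stages from L2 to 6 h passed for Kr-h1. At 9 h libraries had 2, 11, 26 and 23 reads and at 6 h 527, 324, 644 and 594. No 9 h library came near a 6 h library, and Kr-h1 fell at 9 h by 5.36 ± 0.60 (adjusted p = 1.15e-09). From 9 h to 30 h it ran from 0 to 46 reads, and in the adult it had 264, 286, 267 and 395, higher than at 30 h by 5.37 ± 0.60 (adjusted p = 2.42e-10). Adult levels were below all L3 libraries, at 551, 476 and 775, with a difference of -0.97 ± 0.65 that did not pass (adjusted p = 0.346) unless the fit held only those stages.

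In the order of all 17 developmental groups by mean level, the ranges of neighbouring groups overlapped for Hr46 throughout. For ftz-f1 the 4 adult groups, 325 to 805 reads in all, were separated from L2, the next group. Kr-h1 had 1 break, between adult non-MB neurons (202 to 259) and 18 h γ neurons (4 to 46). Eip93F had 2, with αβ neurons above 15 h γ neurons, and 6 h above 3 h. Hr4 had breaks between 6 h and 24 h and between 24 h and 21 h, and Hr39 between L2 and 6 h.

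In the adult brain, γ neurons differed from αβ neurons by 1 of the 6 genes. Eip93F had 2384, 1746, 2690 and 2460 normalized reads in γ neurons and 8556, 9982, 11642 and 9414 in αβ neurons, lower in γ neurons by 2.10 ± 0.37 (adjusted p = 3.37e-05; 7.51% of genes passed). Its level in non-MB neurons was 1700, 2118, 1686 and 1622, so αβ neurons were also above these, by 2.47 ± 0.37 (adjusted p = 5.63e-07; 15.1% of genes passed). No αβ library overlapped with another cell type for this gene. Between γ and non-MB neurons 0 of the 6 genes passed, in a comparison where 14.5% of genes did; the Eip93F interval was -0.37 to 1.12 and the Hr46 interval -0.77 to 0.87. Kr-h1 libraries did not overlap between these cells, with 264 to 395 reads in γ and 202 to 259 in non-MB neurons, but the difference of 0.40 ± 0.60 did not pass (adjusted p = 0.779). The median difference over all genes was -0.15 for γ and -0.14 for αβ against non-MB neurons.

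**Figure D2:**
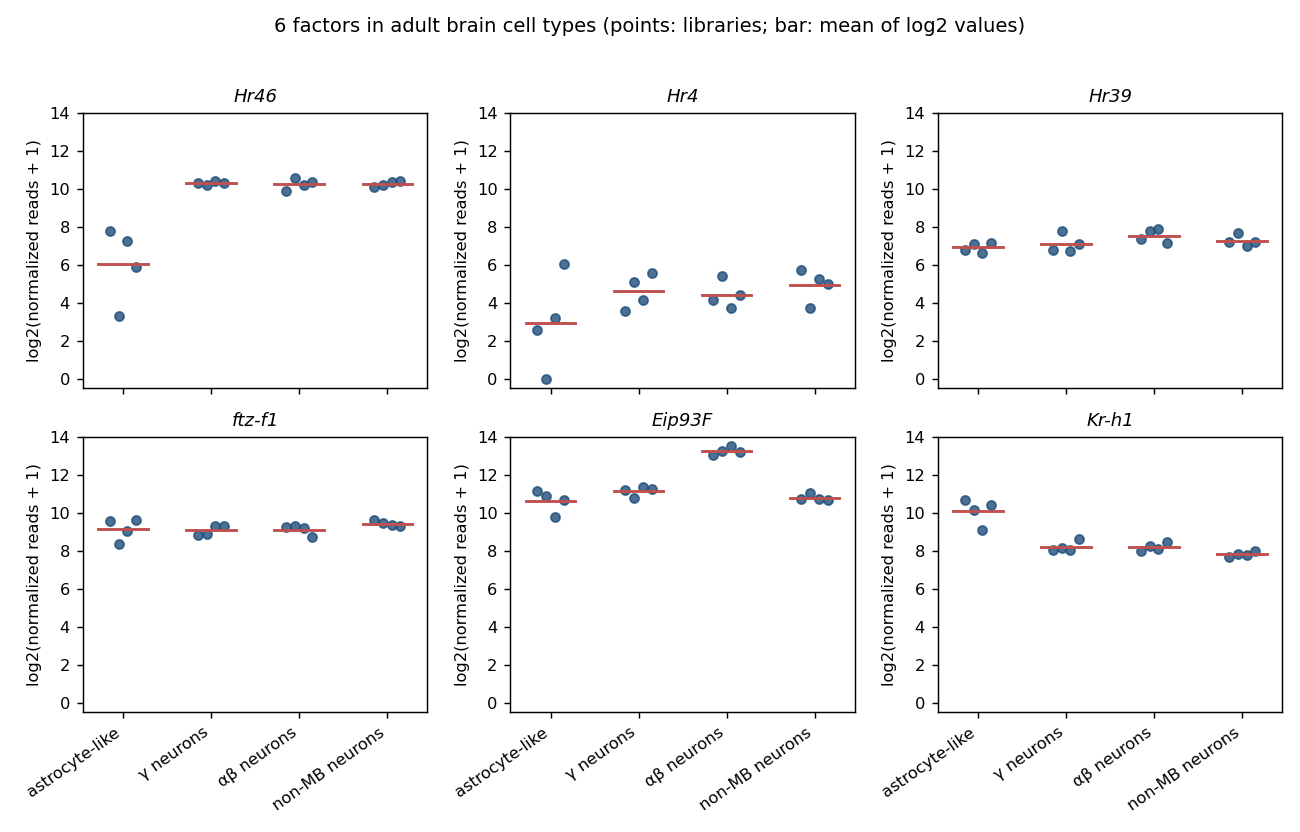
Level of each gene in 4 adult cell types (x axis) as log2(normalized reads + 1) (y axis); points are libraries, bars the means of the log2 values. Astrocyte-like cells have 9 to 219 reads of Hr46 and 552 to 1642 of Kr-h1, and αβ neurons 8556 to 11642 of Eip93F.

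Astrocyte-like cells differed from the mean of the 3 neuron types by 4 of the 6 genes, in a comparison that called 60% of all genes and had a median difference over all genes of -0.45. The 4 astrocyte-like libraries had estimated depths of 0.479 to 0.868 megareads. In them 1 sequenced read was worth 2.36 to 4.32 normalized reads, the most in replicate 2, so their lowest values rest on few reads. Hr46 had 219, 9, 152 and 59 normalized reads in astrocyte-like cells, against 944 to 1501 in the 12 neuron libraries (-4.21 ± 0.34, adjusted p = 9.80e-17). Kr-h1 was the gene higher in astrocyte-like cells, at 1642, 1160, 552 and 1392 reads against 202 to 395 in neurons (2.02 ± 0.49, adjusted p = 3.85e-04). Neither gene had a library of one class within the range of the other.

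Eip93F was lower by 1.11 ± 0.30 (adjusted p = 0.00143), although its 891 to 2254 reads in astrocyte-like cells overlapped both γ and non-MB neurons. Hr4 was at 5, 0, 8 and 64 reads in astrocyte-like cells and 11 to 52 in neurons; its call (-1.70 ± 0.44, adjusted p = 6.97e-04) became -0.72 with adjusted p = 0.111 without astrocyte-like replicate 2, the library at 0. ftz-f1 had 777, 325, 529 and 805 reads in astrocyte-like cells and 422 to 791 in neurons (interval of the difference -1.20 to 1.08). Hr39 was at 99 to 141 reads in astrocyte-like cells and 104 to 232 in neurons (-0.39 ± 0.21, adjusted p = 0.114; it passed with equal library totals).

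Perturbation of the cascade was examined stage by stage against the same control libraries, which the 3 genotypes share, so their differences are not independent of each other. EcR-DN neurons differed from control by 3 of the 6 genes at each stage: Hr4, Hr39 and ftz-f1 at L3 (8.24% of all genes passed) and at 0 h (16.8%), Hr4, ftz-f1 and Eip93F at 6 h (6.85%), and Hr46, ftz-f1 and Eip93F at 12 h (4.82%). Neurons labelled E75 RNAi differed by ftz-f1 alone of the 6 at L3 (3.2%), by 3 genes at 0 h (6.75%), by 5 at 6 h (8.39%) and by 3 at 12 h (4.42%). Sox14 RNAi neurons differed by 0 of 6 at L3 (1.74%), by ftz-f1 alone of the 6 at 0 h (8.55%), by 4 at 6 h (5.98%) and by 0 of 6 at 12 h (1.61%). The median difference over all genes was 0.20 for EcR-DN at 0 h, -0.14 for E75 RNAi at 6 h and 0.10 for Sox14 RNAi at 0 h, and within 0.05 of 0 in the other 9 comparisons.

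**Figure D3:**
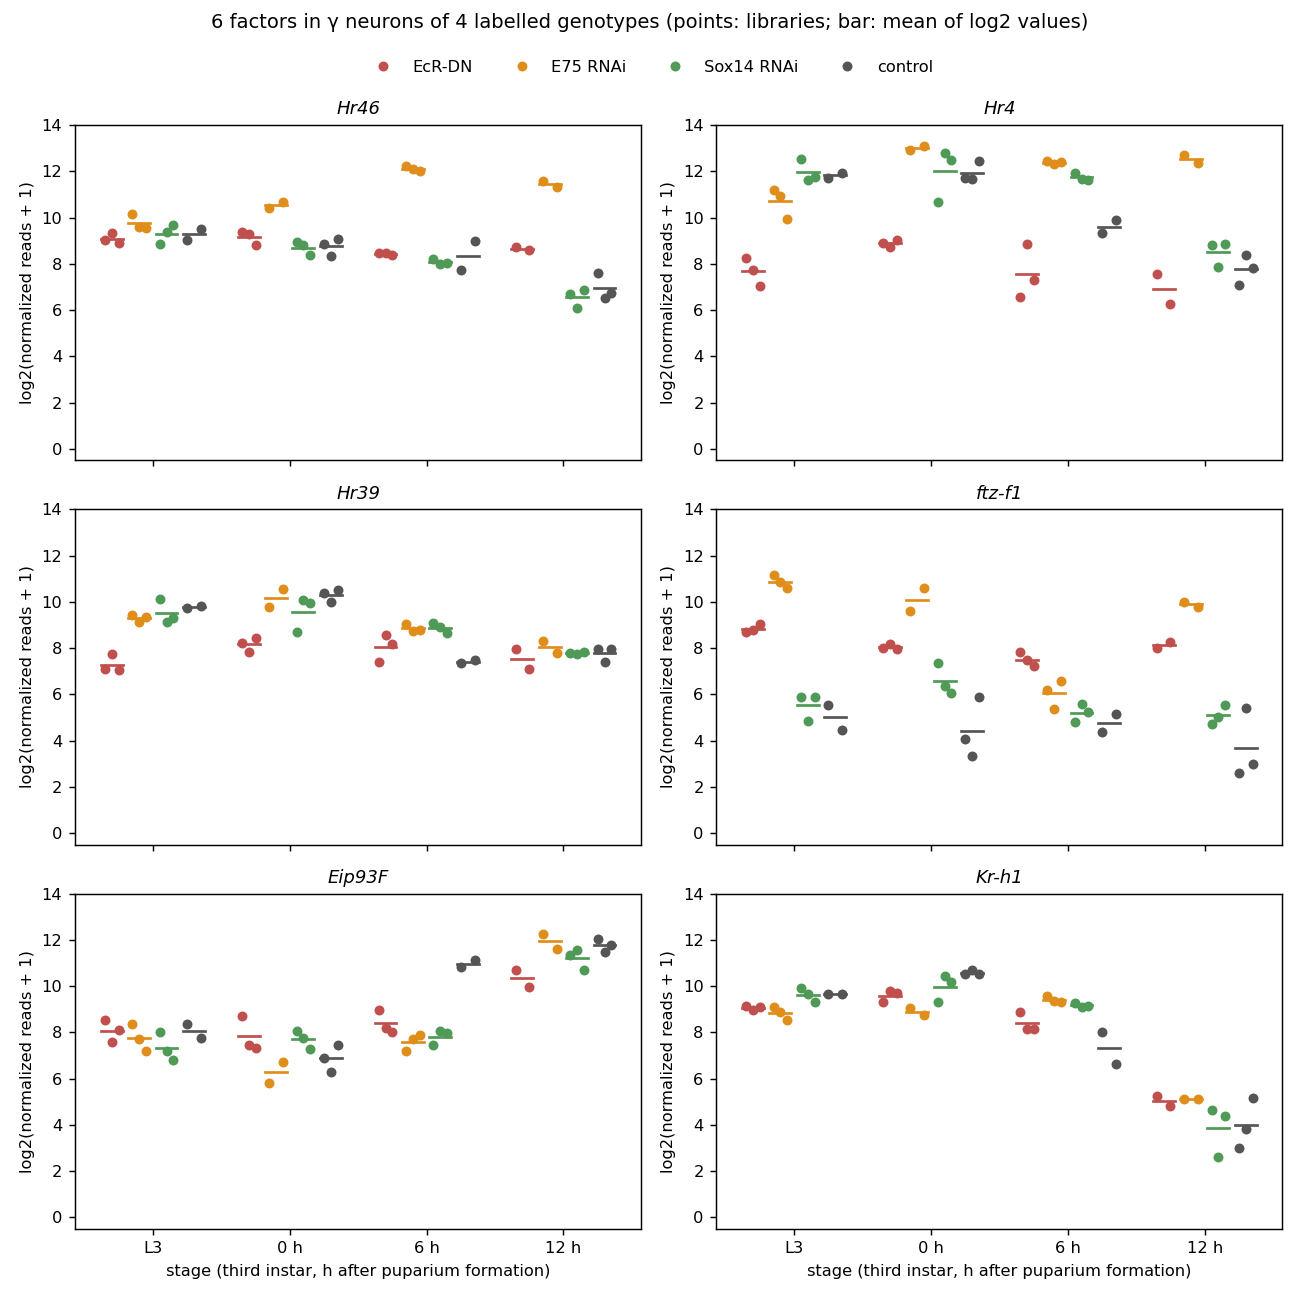
Level of each gene in γ neurons labelled EcR-DN, E75 RNAi, Sox14 RNAi or control (colours) at 4 stages (x axis) as log2(normalized reads + 1) (y axis); points are libraries, bars the means of the log2 values. At 12 h the E75 RNAi libraries have 2597 and 3115 reads of Hr46 and 5310 and 6621 of Hr4, above all other genotypes.

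Hr46 was highest in neurons labelled E75 RNAi at each pupal stage. At 0 h they had 1368 and 1637 normalized reads, against 461, 324 and 543 in control, and at 6 h 4765, 4352 and 4192, against 212 and 508. By 12 h E75 RNAi neurons had 3115 and 2597 reads, against 195, 90 and 106 in control. The differences were 1.79 ± 0.31 at 0 h (adjusted p = 1.04e-04), 3.75 ± 0.31 at 6 h (6.37e-12) and 4.52 ± 0.31 at 12 h (5.09e-14), all from limma, with no overlap at any of these stages. At L3 the E75 RNAi libraries, at 1146, 778 and 746, also lay above 522 and 738 in control, but the difference did not pass (0.49 ± 0.31, adjusted p = 0.593).

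EcR-DN neurons had 418 and 387 reads of Hr46 at 12 h, above control by 1.70 ± 0.31 (adjusted p = 1.87e-04); with only the 2 compared groups in the fit this did not pass. At L3, 0 h and 6 h EcR-DN and control overlapped for Hr46, with 336 to 669 and 212 to 738 reads. Sox14 RNAi neurons overlapped control at all 4 stages, and their intervals lay between -0.97 and 0.67.

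Hr4 was lower in EcR-DN neurons from L3 to 6 h. At L3 they had 303, 213 and 131 normalized reads, against 3398 and 3904 in control (-4.15 ± 0.49, adjusted p = 3.27e-08), and at 0 h 479, 427 and 516, against 3412, 3232 and 5560 (-3.06 ± 0.43, adjusted p = 8.80e-07). Every EcR-DN library lay below every control library at both stages. At 6 h they had 95, 458 and 156 reads, against 637 and 943 in control; that call (-2.03 ± 0.49, adjusted p = 0.00468) was lost without control replicate C (-1.74, adjusted p = 0.122) or EcR-DN replicate A (-1.53, adjusted p = 0.0689). Neuroblast markers, 6 genes summed, were also higher in EcR-DN neurons at L3 (150 to 294 reads) and in E75 RNAi neurons (146 to 175) than in control (11 to 78). At 0 h they were at 83 to 191 in EcR-DN and 62 to 100 in E75 RNAi neurons, against 7 to 52 in control. Sox14 RNAi neurons had 15 to 70 at L3 and 29 to 219 at 0 h. The part of these markers in the L3 and 0 h differences of any genotype was not tested.

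In neurons labelled E75 RNAi, Hr4 was high at 6 h and 12 h, when it was low in control. They had 5553, 5154 and 5364 reads at 6 h, against 637 and 943 in control, and 6621 and 5310 at 12 h, against 135, 338 and 225. Both differences passed, at 2.79 ± 0.49 (adjusted p = 6.20e-05) and 4.76 ± 0.49 (adjusted p = 1.36e-09). At L3 the values were lower, 2381, 1964 and 994 against 3398 and 3904, and at 0 h higher, 7782 and 8762 against 3232 to 5560, with no overlap in either, but neither passed (adjusted p = 0.294 and 0.209).

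Sox14 RNAi neurons had 3859, 3260 and 3187 reads of Hr4 at 6 h, above control by 2.14 ± 0.49 (adjusted p = 0.00314), and 444, 231 and 458 at 12 h, overlapping control at 135, 338 and 225 in a difference that did not pass. Without control 6 h replicate A the 6 h value was 1.86 (adjusted p = 0.0884). Astrocyte markers, 6 genes summed, were lower at 6 h in Sox14 RNAi (248 to 304 reads) and EcR-DN neurons (306 to 365) than in control (756 and 913), and were 663 to 864 in E75 RNAi neurons; at that stage repo had at most 13 and alrm at most 20 reads in any of these libraries. The part of such cells in the 6 h differences was not tested.

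Hr39 was low in EcR-DN neurons when control levels were high. They had 134, 213 and 132 normalized reads at L3, against 854 and 909 in control (-2.49 ± 0.35, adjusted p = 1.50e-06), and 295, 230 and 342 at 0 h, against 1355, 1013 and 1465 (-2.14 ± 0.31, adjusted p = 1.31e-06). The groups did not overlap at L3 or 0 h, and overlapped at 6 h and 12 h. At 6 h it was instead higher in E75 RNAi neurons, at 519, 432 and 437, and in Sox14 RNAi neurons, at 536, 476 and 405, than in control, at 163 and 176. These calls (1.44 ± 0.35, adjusted p = 0.00407, and 1.46 ± 0.35, adjusted p = 0.00483) were both lost without control replicate A (1.38 and 1.41, adjusted p = 0.0574 and 0.0670). At 12 h no genotype passed for Hr39, with 135 to 320 reads in the perturbed neurons and 168 to 250 in control.

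ftz-f1 was higher in EcR-DN neurons at all 4 stages. They had 419, 442 and 519 normalized reads at L3, against 46 and 21 in control, and 253, 288 and 252 at 0 h, against 16, 9 and 58. At 6 h EcR-DN neurons had 225, 176 and 148 against 20 and 34, and at 12 h 253 and 308 against 5, 41 and 7. No EcR-DN library overlapped control at any stage, and the differences ran from 2.74 ± 0.59 at 6 h (adjusted p = 0.00144) to 4.47 ± 0.59 at 12 h (adjusted p = 5.98e-07). Without control 6 h replicate A the 6 h value was 2.37 (adjusted p = 0.0643), and the 12 h call was lost with only the 2 compared groups in the fit.

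In neurons labelled E75 RNAi, ftz-f1 had 2272, 1858 and 1563 reads at L3, 775 and 1534 at 0 h, 72, 40 and 94 at 6 h, and 1025 and 885 at 12 h. The 6 h libraries stood below all other E75 RNAi libraries. Differences from control were 5.87 ± 0.59 at L3 (adjusted p = 1.84e-08), 5.66 ± 0.59 at 0 h (6.38e-09) and 6.24 ± 0.59 at 12 h (2.16e-10), while at 6 h the difference of 1.28 ± 0.59 did not pass (0.206), all from limma. The 0 h and 12 h calls did not pass when only the 2 compared groups entered the fit.

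For Sox14 RNAi, ftz-f1 had 165, 82 and 65 reads at 0 h, against 16, 9 and 58 in control, a difference of 2.17 ± 0.53 (adjusted p = 0.00505). It became 1.78 ± 0.58 with adjusted p = 0.0531 without the 2 replicate A libraries that stand apart, and 1.61 with adjusted p = 0.0692 without control replicate B. At L3 none of the 6 genes passed with or without those libraries. Cuticle and trachea markers in Sox14 RNAi neurons ran from 34 to 797 reads at 0 h (median 48), against 22 to 83 in control. At L3 these markers ran from 9 to 1040 (median 35), against 31 to 57. Astrocyte markers at 0 h ran from 100 to 454 (median 101), against 163 to 231. The part of either list in the L3 and 0 h differences was not tested.

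Both replicate A libraries of Sox14 RNAi stood outside their group for several of the 6 genes. Hr4 had 5912 normalized reads in L3 replicate A and 3125 and 3492 in replicates B and C, and 1649 in 0 h replicate A and 7166 and 5807 in B and C. Hr39 had 1099 reads in L3 replicate A and 552 and 635 in the others, and 413 in 0 h replicate A and 1077 and 983 in the others. Replicate A was thus high at L3 and low at 0 h, and Kr-h1 showed the same order, with 966, 801 and 642 reads at L3 and 629, 1364 and 1153 at 0 h. Without both libraries the differences from control for Hr4 were -0.14 at L3 and 0.71 at 0 h, and those for Hr39 were -0.57 and -0.29, none of which passed.

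**Figure D4:**
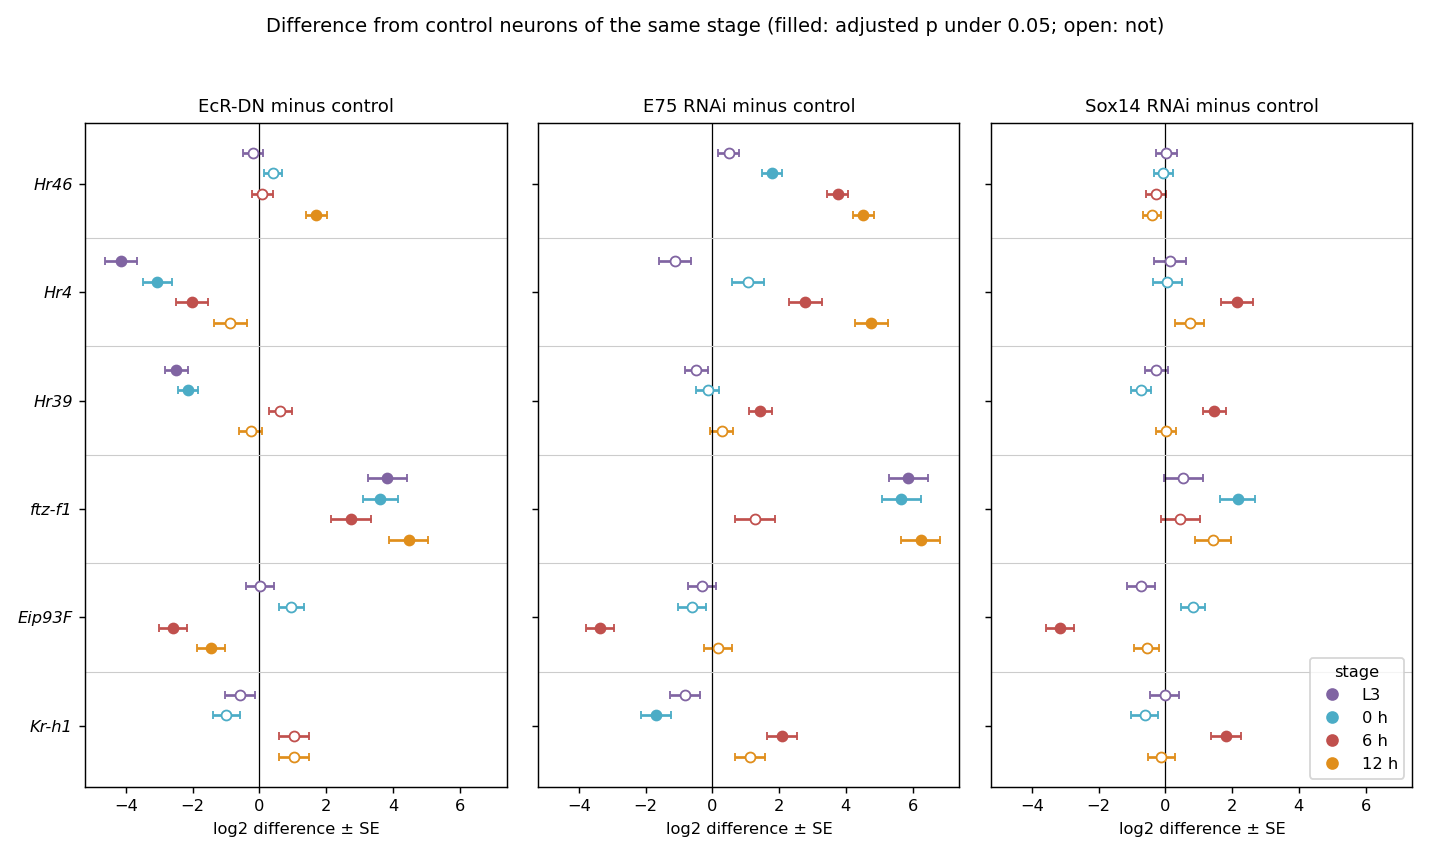
Difference of each gene (rows) between perturbed and control γ neurons of the same stage (x axis, log2 difference with SE bars), 1 panel per genotype and 1 colour per stage; filled points have an adjusted p under 0.05. Eip93F lies between -3.38 and -2.58 at 6 h in the 3 genotypes.

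Eip93F was lower in the 3 perturbed genotypes at 6 h, the stage at which it had risen in control neurons. It had 495, 288 and 259 normalized reads in EcR-DN neurons, 143, 209 and 236 in E75 RNAi neurons, and 173, 263 and 249 in Sox14 RNAi neurons, against 1814 and 2210 in control. The differences were -2.58 ± 0.42 for EcR-DN (adjusted p = 1.74e-05), -3.38 ± 0.42 for E75 RNAi (7.19e-08) and -3.15 ± 0.42 for Sox14 RNAi (9.73e-07) by limma, and all 3 passed in each fit that left out 1 library. Since these share 2 control libraries, a control value that was off would move all 3. Cuticle and trachea markers at 6 h were also lower, at 610 to 1300 reads in EcR-DN, 1557 to 1675 in E75 RNAi and 31 to 581 in Sox14 RNAi neurons, against 2773 and 3562 in control. Dissociation stress genes had 4624 to 5532 reads in EcR-DN, 2725 to 4805 in E75 RNAi and 17438 to 18812 in Sox14 RNAi neurons, against 13248 and 14857 in control. The part of either list in the 6 h differences of any of the 6 genes was not tested.

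At 12 h EcR-DN neurons had 1648 and 1002 reads of Eip93F, E75 RNAi neurons 4921 and 3138, and Sox14 RNAi neurons 2604, 3050 and 1672, against 4227, 2840 and 3545 in control. Only EcR-DN passed (-1.44 ± 0.42, adjusted p = 0.0309), and 4 of its 5 fits that left out 1 library lost the call (-1.80 to -1.08, adjusted p 0.0578 to 0.441). Between genotypes at 12 h, Eip93F was called lower in EcR-DN than in E75 RNAi neurons. Neither of these passed against Sox14 RNAi neurons for this gene. At L3 and 0 h, before the rise in control, 0 of the 3 genotypes passed for Eip93F, with 55 to 411 reads in perturbed neurons and 76 to 328 in control.

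In neurons labelled E75 RNAi, Kr-h1 was lower than in control at 0 h and higher at 6 h. It had 522 and 427 normalized reads at 0 h, against 1462, 1637 and 1489 in control (-1.69 ± 0.45, adjusted p = 0.0126), and 753, 662 and 634 at 6 h, against 261 and 99 (2.08 ± 0.45, adjusted p = 0.00112). Sox14 RNAi neurons had 624, 538 and 557 reads at 6 h (1.82 ± 0.45, adjusted p = 0.00646). Both 6 h calls rested on control replicate C, the library at 99: without it the values were 1.38 (adjusted p = 0.163) for E75 RNAi and 1.13 (adjusted p = 0.340) for Sox14 RNAi. The 0 h call was lost without either E75 RNAi library (-1.84 and -1.55, adjusted p = 0.0527 and 0.0915). EcR-DN neurons had 625, 871 and 835 reads at 0 h and 476, 279 and 278 at 6 h, outside the control range at both stages, and neither difference passed (-0.99 ± 0.40, adjusted p = 0.0863, and 1.05 ± 0.45, adjusted p = 0.189).

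By 12 h Kr-h1 was at 27 to 37 reads in EcR-DN, 34 and 34 in E75 RNAi, 5 to 24 in Sox14 RNAi and 7 to 35 in control neurons, and no genotype passed against control. Within genotypes it fell at 12 h relative to 6 h, with differences of -3.36 ± 0.45 in EcR-DN, -4.28 ± 0.45 in E75 RNAi, -5.29 ± 0.40 in Sox14 RNAi and -3.35 ± 0.45 in control neurons (adjusted p at most 1.44e-05). In those steps 0.323%, 6.56%, 3.55% and 4.74% of genes passed, and of the 6 genes 2, 3, 5 and 3.

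The change of each effect between consecutive stages was tested as an interaction. Between 0 h and 6 h the effect of EcR-DN shifted for Hr39, Eip93F and Kr-h1 (3 of 6 genes beside 4.82% of all genes), that of E75 RNAi for Hr46, ftz-f1, Eip93F and Kr-h1 (4 beside 4.07%) and that of Sox14 RNAi for Hr39, Eip93F and Kr-h1 (3 beside 2.62%). Eip93F shifted downward in each, by -3.54 ± 0.56, -2.78 ± 0.59 and -3.98 ± 0.56 in that order of genotypes. The Kr-h1 shift with EcR-DN was lost in 8 of 11 fits that left out 1 library (1.34 to 2.73), the Hr46 shift with E75 RNAi without control 6 h replicate A (1.33, adjusted p = 0.135), and the Kr-h1 shift with Sox14 RNAi without control 6 h replicate C (1.74, adjusted p = 0.218) or both Sox14 RNAi replicate A libraries (2.11, adjusted p = 0.0612). For ftz-f1 the E75 RNAi effect was smaller at 6 h than at 0 h by 4.38 ± 0.84 (adjusted p = 7.88e-04) and larger at 12 h than at 6 h by 4.96 ± 0.84 (adjusted p = 4.88e-04). The Eip93F effect also moved back between 6 h and 12 h, by 3.55 ± 0.59 with E75 RNAi (2 of 6 genes beside 0.866%) and by 2.59 ± 0.56 with Sox14 RNAi (1 of 6 beside 1.16%; 2.45 and adjusted p = 0.0719 without control 6 h replicate C). The EcR-DN effect did not shift for any of the 6 genes between 6 h and 12 h (0.196% of all genes). From L3 to 0 h 0 of the 6 genes shifted in any genotype (0.416%, 0.497% and 0.104% of all genes).

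Stage steps were also tested within each genotype. In control neurons 0 of the 6 genes passed at 0 h relative to L3 (1.54% of all genes did), and Hr4, Hr39 and Kr-h1 fell and Eip93F rose at 6 h relative to 0 h (4 of 6 genes beside 9.51% of all genes). In E75 RNAi neurons over the same interval Hr46 rose by 1.57 ± 0.31 (adjusted p = 4.08e-04), Eip93F rose by 1.32 ± 0.42 (0.0292), Hr39 fell by 1.31 ± 0.35 (0.00833) and ftz-f1 fell by 4.05 ± 0.59 (3.08e-06) by limma (4 beside 11.6%). EcR-DN and Sox14 RNAi neurons had 0 of the 6 genes pass at 6 h relative to 0 h, beside 1.21% and 8.16% of all genes. The Eip93F step was 0.56 ± 0.37 in EcR-DN and 0.12 ± 0.37 in Sox14 RNAi neurons, against 4.10 ± 0.42 in control neurons. Without EcR-DN 6 h replicate B, Hr4 fell in EcR-DN neurons by 1.95 (adjusted p = 0.0212), and without the 2 Sox14 RNAi replicate A libraries Hr39 fell in Sox14 RNAi neurons by 1.13 (adjusted p = 0.0102). The Eip93F rise was lost without 0 h replicate A (0.86, adjusted p = 0.381), and the Hr39 fall without 0 h replicate B (-0.93, adjusted p = 0.170). Hr4 at 12 h relative to 6 h fell by 1.83 ± 0.49 in control neurons (adjusted p = 0.0159) and by 3.24 ± 0.43 in Sox14 RNAi neurons (1.01e-06), and differed by 0.15 ± 0.49 in E75 RNAi neurons, which did not pass, by limma. The control fall was lost without control 6 h replicate A or C or 12 h replicate A (-2.11 to -1.49, adjusted p 0.0515 to 0.250).

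Comparing perturbed neurons with each other needs no control library. At L3 EcR-DN neurons were below E75 RNAi neurons for Hr4 (-3.03 ± 0.43, adjusted p = 5.24e-06), Hr39 (-2.01 ± 0.31, 1.78e-05) and ftz-f1 (-2.03 ± 0.53, 0.0142) by limma, 3 of 6 genes beside 5.11% of all genes. At 0 h 5 of 6 passed beside 16.9%, with Hr46, Hr4, Hr39 and ftz-f1 lower and Eip93F higher in EcR-DN neurons. For ftz-f1 the L3 call was lost without replicate A of either genotype (adjusted p = 0.0595 and 0.0775) and the 0 h call without E75 RNAi replicate B (-1.55, adjusted p = 0.163). The Eip93F call at 0 h was lost without replicate A of either genotype (adjusted p = 0.0769 and 0.189). E75 RNAi neurons exceeded Sox14 RNAi neurons for Hr46 by 4.03 ± 0.28 at 6 h (adjusted p = 9.64e-15; 1 of 6 genes beside 16.9% of all genes) and by 4.92 ± 0.31 at 12 h (adjusted p = 3.23e-15; 3 of 6 beside 5.41%, with Hr4 and ftz-f1). At 6 h Hr39, Eip93F and Kr-h1 did not pass between these genotypes, with intervals of -0.65 to 0.60, -0.98 to 0.52 and -0.55 to 1.06.

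The wider pathway was read from lists of genes by name, and EcR, usp, Eip75B, Eip78C, Hr38 and Hr51 stand in both of the first 2. The genes targeted by the perturbations were kept in the counts: EcR and Eip75B in both of these lists, and Sox14 in the ecdysone pathway list. Of the other nuclear receptors, 17 by name, 11 were tested in the developmental table and 12 in the perturbation table. Across γ stages 7 of the 11 varied, beside 43.5% of all genes. In EcR-DN neurons 5 of 12 passed at L3, beside 8.24% of all genes (2 higher and 3 lower; median difference -0.13, against 0.05 over all genes), with Hr38, an activity-induced receptor that is also listed among genes of dissociation stress, higher by 5.51 ± 0.98, and Hr78 at -2.43 ± 0.40. At 0 h, 6 h and 12 h 3 of 12 passed each in EcR-DN neurons, beside 16.8%, 6.85% and 4.82% of all genes. In E75 RNAi neurons 1, 2, 4 and 2 of 12 passed at L3, 0 h, 6 h and 12 h, beside 3.2%, 6.75%, 8.39% and 4.42%. In Sox14 RNAi neurons 0, 0, 2 and 1 did, beside 1.74%, 8.55%, 5.98% and 1.61%. At 12 h Eip78C, an early-late receptor of the cascade, was higher in all 3 perturbed genotypes, by 4.72 ± 0.59 in EcR-DN, 5.87 ± 0.59 in E75 RNAi and 3.17 ± 0.53 in Sox14 RNAi neurons. EcR was higher in E75 RNAi neurons at 6 h by 1.77 ± 0.21 (4 of 12 receptors passed, 3 of them higher) and at 0 h by 1.09 ± 0.21.

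Of 37 other ecdysone pathway genes listed, 34 and 35 were tested in the 2 tables. At 6 h 8 of 35 passed in EcR-DN neurons (6 higher; 6.85% of all genes passed), 12 in E75 RNAi neurons (10 higher; 8.39%) and 10 in Sox14 RNAi neurons (5 higher; 5.98%), with medians of 0.22, 0.26 and -0.06, against -0.02, -0.14 and 0 over all genes. At 9 h relative to 6 h 9 of 34 passed beside 4.01% of all genes, 7 of them lower, among them ImpL1 (-4.38 ± 0.53) and ImpE2 (-4.13 ± 0.96), genes first found as ecdysone-induced in imaginal discs, while Blimp-1, a repressor of ftz-f1, rose by 3.00 ± 0.23. In EcR-DN neurons at L3 Blimp-1 was at -4.06 ± 0.39, among 10 lower and 3 higher of 35 (8.24% of all genes passed), and in E75 RNAi neurons at L3 it was at -2.27 ± 0.39, among 4 lower and 3 higher (3.2%). At 12 h br, a zinc-finger early gene, was higher by 4.81 ± 0.31 in EcR-DN, 3.35 ± 0.31 in E75 RNAi and 1.07 ± 0.28 in Sox14 RNAi neurons, where 6, 7 and 4 of 35 passed beside 4.82%, 4.42% and 1.61% of all genes. In Sox14 RNAi neurons at 6 h the early gene Eip74EF was higher by 2.81 ± 0.31 and ImpL1 was at -5.14 ± 1.43. Of 13 juvenile hormone pathway genes, 11 were tested across stages. At 9 h relative to 6 h, the step at which Kr-h1 fell, 0 of the 11 passed beside 4.01% of all genes. With so few genes, 0 is near that share. The juvenile hormone receptor gene gce was higher in EcR-DN neurons at 0 h by 2.03 ± 0.51. Of the 2 nitric oxide genes tested, both subunits of soluble guanylate cyclase, 1 passed in EcR-DN neurons at 0 h, 6 h and 12 h each. The shares of all genes were 16.8%, 6.85% and 4.82%. Gycalpha99B was higher by 2.22 ± 0.35 at 6 h.

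Similarity of stage profiles was described by Pearson's r of mean log2 levels over the 14 γ stages, points that share the table's normalization, with no test. CG12912 was most like Hr46 (r = 0.999), CG45075 most like Kr-h1 (r = 0.999) and CR45939, a non-coding RNA, most like ftz-f1 (r = 0.973). Each of these 3 genes overlaps the named gene on the same strand in the Release 6 annotation, so tags could be split between the 2 genes and their levels are uncertain as separate measures. In E75 RNAi neurons at 12 h CG12912 was higher by 4.51 ± 0.31 and CR45939 by 5.12 ± 0.87, beside 4.52 for Hr46 and 6.24 for ftz-f1.

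Among genes that do not overlap a member, Plc21C (r = 0.977) and Eip78C (0.968) were most like Kr-h1, Esyt2 (0.961) and CR45054 (0.958) most like ftz-f1, and Dat, orb and CG44838 (0.969 each) most like Eip93F. Hr39 was closest to CG42666 (0.952), Pdk1 (0.947) and CG32100 (0.945). For Hr4 they were CG3587 (0.843), RpS27A (0.839) and CG8207 (0.836), and for Hr46 CG15630 (0.841) and DJ-1alpha (0.813). The least alike were PVRAP for Hr39 (-0.974), Eip63E for Eip93F (-0.972), Ppa for Kr-h1 (-0.969), CG9098 for ftz-f1 (-0.959), CG6765 for Hr4 (-0.920) and glo for Hr46 (-0.919).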

How the data were processed

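Per the labels' protocols, 1000 sorted cells per library were processed by MARS-seq with molecular barcodes; tools listed in the submitters' processing notes are HISAT 0.1.5, HOMER and bcl2fastq. The genome build, the counting settings and the normalization are not given in the sources used here. The authors deposited 2 tables of normalized reads per gene and library, rounded to whole numbers; because the authors' normalized values are rounded, they were treated as a score and not as raw counts, so no count model was used. Depth could be estimated from steps between low values in 14 developmental libraries (0.479 to 1.58 megareads) and 10 perturbation libraries (1.01 to 2.06 megareads), and is unknown for the others.

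Values were taken as log2(value + 1) and tested with limma 3.58.1 in R 4.3.3 (empirical Bayes with trend, two-sided). A gene entered if 3 developmental or 2 perturbation libraries held 10 or more reads. All 64 or 43 libraries of a table entered 1 fit with a mean per group; the tables were not compared. P-values were adjusted by Benjamini-Hochberg over all genes of a comparison. The method was tested on simulated data. Shared replicate numbers did not pair libraries: deviations of same-numbered libraries had a median correlation of 0.000418 and -0.00114.

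The members, the gene lists and the rule for named genes (the 6 genes, the 3 most and 1 least similar profiles, the targeted genes, and up to 4 list genes per comparison) were chosen with earlier results of these data known. EcI, dor and Nos were not matched. Names, strand and overlaps come from the Release 6 annotation. Alternatives were other pseudocounts, filters, scalings and variance models, a replicate block, fits of the compared groups alone or without astrocyte-like libraries, and each library left out. Leaving out the 2 Sox14 RNAi replicate A libraries was added after seeing the data.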

Additional observations from a re-analysis of the deposited data

Results flagged for a closer look

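The values of each gene in each group of 4 libraries were tested as a set, and sets from the same group share libraries. Of 78 such sets, 4 had a library apart from the rest by Dixon's criterion, which marks about 1 set in 20 by chance. Hr4 had 64 normalized reads in 1 adult astrocyte-like library and 0 to 8 in the other 3. Eip93F had 2118 reads in 1 non-MB library and 1622 to 1700 in the others. Kr-h1 had 46 reads in 1 library of 18 h γ neurons and 4 to 7 in the others, and 395 in 1 adult γ library and 264 to 286 in the others.

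The difference between perturbed and control neurons changed between consecutive stages in 13 cases over 10 pairs of gene and genotype, each by the interaction test of limma (log2, later effect minus earlier effect). Of all genes, 4.82%, 4.07% and 2.62% passed from 0 h to 6 h with EcR-DN, E75 RNAi and Sox14 RNAi. The shares were 0.196%, 0.866% and 1.16% from 6 h to 12 h, and 0.416%, 0.497% and 0.104% from L3 to 0 h. From 0 h to 6 h the EcR-DN effect moved by 2.77 for Hr39 (adjusted p = 7.13e-05), by -3.54 for Eip93F (2.40e-05) and by 2.03 for Kr-h1 (0.0361). Over the same interval the E75 RNAi effect moved by 1.96 for Hr46 (0.0047), -4.38 for ftz-f1 (7.88e-04), -2.78 for Eip93F (0.0027) and 3.77 for Kr-h1 (1.18e-04). The Sox14 RNAi effect moved by 2.20 for Hr39 (0.0037), -3.98 for Eip93F (1.06e-05) and 2.44 for Kr-h1 (0.0153). From 6 h to 12 h the E75 RNAi effect moved by 4.96 for ftz-f1 (4.88e-04) and 3.55 for Eip93F (3.82e-04), and the Sox14 RNAi effect by 2.59 for Eip93F (0.0089). All of these share the 2 control libraries of 6 h. The EcR-DN shift of Kr-h1 was lost in 8 of 11 fits that left out 1 library, the E75 RNAi shift of Hr46 without control 6 h replicate A (1.33, adjusted p = 0.135), and the Sox14 RNAi shift of Kr-h1 without control 6 h replicate C (1.74, adjusted p = 0.218) or Sox14 RNAi 0 h replicate A (2.11, adjusted p = 0.0660), and also without both replicate A libraries (2.11, adjusted p = 0.0612). The Sox14 RNAi shift of Eip93F from 6 h to 12 h was lost without control 6 h replicate C (2.45, adjusted p = 0.0719).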

How the results depend on the processing

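Over 50 comparisons, 109 differences of the 6 genes passed; 67 did so under every alternative and with every library left out, 35 were lost under at least 1 alternative, 29 with at least 1 library left out, and 0 reversed. Of 185 that did not pass, 23 passed under at least 1 alternative. The fit of the compared groups alone, with few residual degrees of freedom, lost 33 and gained 16 of 300 values and moved the count over all genes beyond 1.5 times in 32 of 50 comparisons. Robust variances lost 9, no filter 6 and a pseudocount of 0.5 lost 1; a pseudocount of 5 gained 5, equal totals 4 and the stricter filter 1. Quantile normalization lost 1 and gained 4, median-ratio rescaling changed 0, and leaving out astrocyte-like libraries gained 8 of 90. The cause of these changes was not tested.

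With the compared groups alone, the number of the 6 genes passing became 1 for γ neurons at 3 h minus 0 h, 4 for 6 h minus 3 h and for 6 h minus 0 h, 5 for 9 h minus 6 h, and 0 for 24 h minus 18 h. It became 0 for EcR-DN minus control at 12 h, E75 RNAi minus control at 0 h, Sox14 RNAi minus control at 0 h, control 12 h minus 6 h and EcR-DN 12 h minus 6 h. It became 1 for the E75 RNAi effect changes from 0 h to 6 h and from 6 h to 12 h, the Sox14 RNAi effect change from 0 h to 6 h, and E75 RNAi 6 h minus 0 h, and 2 for the Sox14 RNAi effect change from 6 h to 12 h (also with quantile normalization) and E75 RNAi minus Sox14 RNAi at 6 h. Without astrocyte-like libraries it was 4 for 0 h minus L3 and 6 h minus 0 h (also with a pseudocount of 5) and 1 for 3 h minus 0 h (also with equal totals or quantile normalization). For 24 h minus 18 h it was 1 with a pseudocount of 0.5, no filter or robust variances, and for EcR-DN 12 h minus 6 h it was 1 with robust variances. Without both Sox14 RNAi replicate A libraries, chosen after seeing the data, it was 0 for Sox14 RNAi minus control at 0 h and 1 for Sox14 RNAi 6 h minus 0 h. Across the alternatives, left-out libraries aside, the count over all genes moved too. Its lowest was 0 for 24 h minus 18 h (11 as reported) and for E75 RNAi minus control at 0 h (584). For EcR-DN 12 h minus 6 h it was also 0 (28). EcR-DN minus control at 12 h had a lowest of 266 (417), and Sox14 RNAi minus control at 0 h 133 (740). The highest was 751 for 3 h minus 0 h (488) and 572 for 9 h minus 6 h (334).

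With single libraries left out, the number of the 6 genes ran from 0 to 2 for γ neurons at 0 h minus L3 and at 24 h minus 18 h. The counts over all genes were 506 to 734 (710 as reported) and 3 to 12 (11). For Sox14 RNAi minus control at 0 h and at 12 h the number of the 6 genes ran from 0 to 1. At 12 h the count over all genes was 70 to 119 (139), and the ranges below are again for the 6 genes. This number ran from 0 to 1 for EcR-DN 6 h minus 0 h and Sox14 RNAi 6 h minus 0 h. It ran from 1 to 2 for EcR-DN 12 h minus 6 h and from 1 to 4 for control 12 h minus 6 h.

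Replicate numbers did not pair libraries, and the replicate block changed 1 call: Eip93F at 9 h minus 6 h was 1.17 ± 0.36 (adjusted p = 0.0461) with the block. Groups of 2 or 3 libraries and unknown depth limit what low levels, such as ftz-f1 and Kr-h1 in pupal neurons, can show.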
